A study of Mus musculus with 18 samples.

Results

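Wild-type (wt) embryoid bodies (EBs) after 4 days of differentiation were compared with the undifferentiated wt embryonic stem cells (ESCs, day 0) from which they were grown. The comparison uses 4 of the 18 arrays of the series, 2 of day 4 EBs and 2 of day 0 ESCs, taken by their genotype and day, and all 35512 probe sets of the array. The cells are J1 ESCs (strain 129Sv/Jae), 1 line, and the EBs were formed in hanging drops; the RNA is that of whole cultures. The other 14 arrays hold wt EBs of day 16 (2 arrays) and the same 3 days of 2 mutant J1 lines, Dnmt1-/- and the triple knockout (TKO) that is Dnmt1-/-, Dnmt3a-/- and Dnmt3b-/-. The wt cells carry none of these mutations. Signals are the authors' log2 values per probe set, so that a difference of 1 is a 2-fold change. On the 4 arrays the signals ran from 1.21 to 14.01, with array medians of 5.83 and 5.87 in EBs and 5.79 and 5.84 in ESCs.

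ESCs held in the naive state by leukemia inhibitory factor (LIF) express a circuit of transcription factors around Oct4 (Pou5f1), Sox2 and Nanog, which keeps the cells dividing without lineage choice. When LIF is withdrawn and the cells aggregate, they pass through a state like the epiblast of the implanting embryo and then, under Nodal, BMP, Wnt and FGF signals, through a state like the primitive streak, from which mesoderm and endoderm arise. The EB is a mixture of such cells. In RNA from whole EBs, fewer cells of a type and less RNA of a gene per cell cannot be told apart.

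The labels of the arrays were first set against markers of both states. Of 12 ESC identity markers, 11 fell by day 4, and the median log2 fold change of the list was -3.59, beside -0.03 over all 19938 genes with a probe set of their own. Zfp42 (Rex1), a zinc finger protein of naive ESCs, gave 5.53 and 5.16 in EBs, against 10.25 and 10.58 in ESCs. Pou5f1 gave 8.52 and 9.13 in EBs, against 11.57 and 11.35 in ESCs, and Nanog gave 7.75 and 8.36, against 10.88 and 10.41. In both genes the groups did not overlap. The 12th marker, Tdgf1 (Cripto), a co-receptor of Nodal, was at 9.38 and 10.55 in EBs, against 11.72 and 11.83 in ESCs, and its change of -1.81 ± 0.54 (standard error, SE, of the fit) missed the threshold (adjusted p = 0.056). Klf4 fell by 1.02 ± 0.19, but not as a call without EB replicate 2 or without ESC replicate 1.

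**Figure D1:**
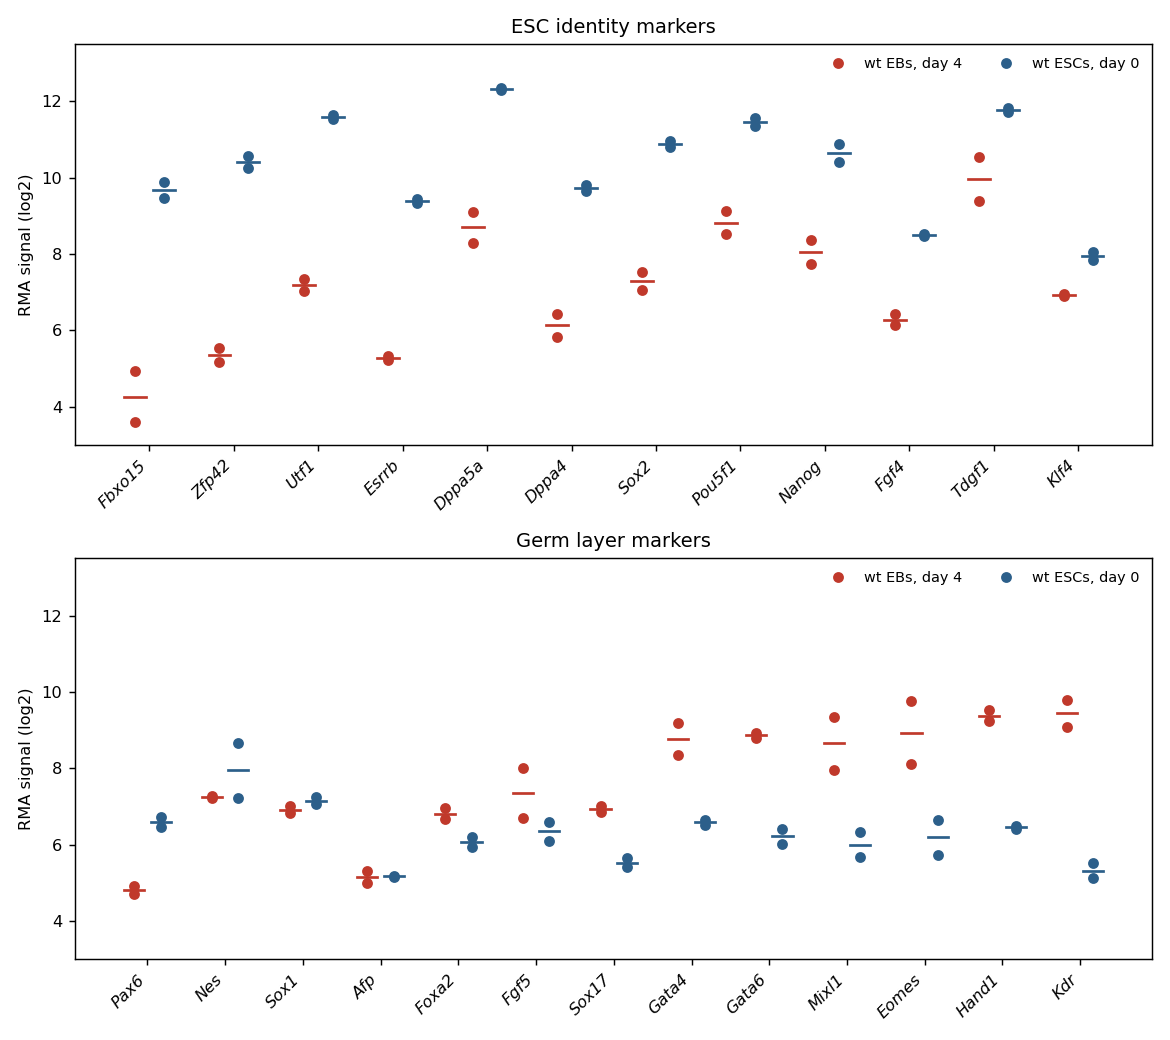
RMA signal (log2) of 12 ESC identity markers and 13 germ layer markers in wt EBs of day 4 (red) and wt ESCs of day 0 (blue); each point is 1 array and each line the mean of 2. The EB arrays lie below the ESC arrays in every ESC identity marker. They lie above them in Sox17, Gata4, Gata6, Mixl1, Eomes, Hand1 and Kdr, and in Foxa2 and Fgf5, which were not called.

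Of 13 germ layer markers, 7 rose and 1 fell. Both counts changed without ESC replicate 2. The calls of Eomes and Mixl1 were lost without that array or without EB replicate 2. Kdr (Flk1), the VEGF receptor of the first vascular and blood-forming mesoderm, gave 9.09 and 9.79 in EBs, against 5.12 and 5.52 in ESCs, a change of 4.12 ± 0.36 (adjusted p = 2.8e-05). Hand1, a transcription factor of lateral mesoderm and trophoblast, gave 9.53 and 9.24, against 6.50 and 6.41. The endoderm factors Gata6, Gata4 and Sox17 rose by 2.65 ± 0.24, 2.19 ± 0.26 and 1.41 ± 0.20. The one marker that fell was Pax6, a factor of the neural plate, with 4.93 and 4.71 in EBs, against 6.73 and 6.47 in ESCs. The neural markers Sox1 (-0.24 ± 0.17) and Nes (-0.71 ± 0.35) and the visceral endoderm product Afp (-0.03 ± 0.35) were not called, nor were Foxa2 (0.74 ± 0.17) and Fgf5 (1.01 ± 0.45). Markers of other cells that such a culture could hold were counted too. Of 21 macrophage markers 0 rose and 2 fell (Cd68 and Laptm5), with a list median of -0.06, and without EB replicate 2 or either ESC array 0 fell. Of 23 markers of feeder fibroblasts 5 rose (Pdgfra, Pdgfrb, Twist2, Fbln2 and Col1a1) and 1 fell, with a list median of 0.11; the 21.7% that rose compare with 3.02% of all genes. The part of fibroblasts in the results was not tested. Without EB replicate 1 or without ESC replicate 2 the fibroblast count was 3, and Col1a1 was no longer called whichever of the 4 arrays was left out.

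A probe set counted as called when it changed at least 2-fold and the Benjamini-Hochberg adjusted p over all 35512 probe sets was under 0.05 in the fit of all 18 arrays. By this rule 863 probe sets were higher in EBs (2.43%) and 738 lower (2.08%). Counted as genes, with the brightest probe set of each, 602 of 19938 rose (3.02%) and 553 fell (2.77%). The falls were the steeper changes: 203 of the lower probe sets fell at least 4-fold, against 137 of the higher ones that rose as far, and 25 against 8 changed at least 16-fold. The count of higher probe sets was 545 without EB replicate 1 and 537 without ESC replicate 2, and between 856 and 955 without each of the other 2 arrays. The count of lower ones stayed between 621 and 692. The 2 EB arrays differed by a median of 0.241 per probe set and the 2 ESC arrays by 0.198, and p-values measure the spread between such pairs, which the study describes as independent experiments on the same lines.

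**Figure D2:**
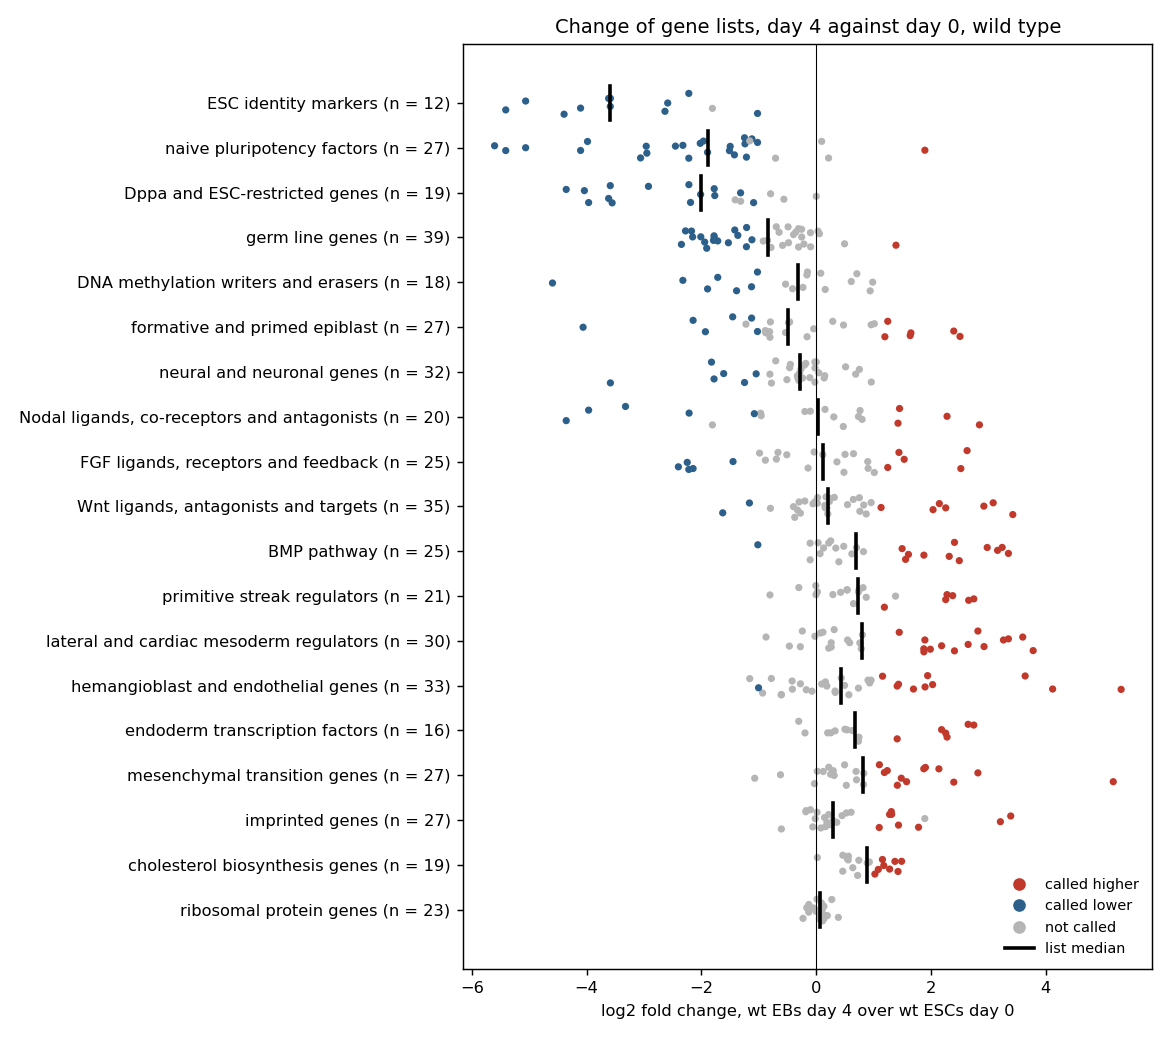
Log2 fold change of the measured genes of 19 lists, wt EBs of day 4 over wt ESCs of day 0; each point is 1 gene, coloured by its call, and the black line is the list median. The medians of the ESC and germ line lists lie left of 0, those of the mesoderm, BMP and mesenchymal transition lists right of it, and that of the ribosomal protein genes at 0.07.

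Of 27 measured naive pluripotency factors 22 fell and 1 rose, with a list median of -1.89. Nr0b1 (Dax1), an orphan nuclear receptor that binds Oct4, had the steepest fall of all genes, with 4.66 and 5.13 in EBs, against 10.32 and 10.68 in ESCs, a 48.7-fold lower level in EBs (log2 change -5.60 ± 0.44, adjusted p = 1.7e-05). Esrrb, another orphan nuclear receptor, gave 5.23 and 5.34 in EBs, against 9.44 and 9.34 in ESCs. Fbxo15, a target of Oct4 and Sox2 long used as a reporter of the ESC state, fell by 5.41 ± 0.52. Its EB arrays, at 4.93 and 3.60, were further apart than its ESC arrays, at 9.47 and 9.88. Tcl1 (-3.06), Tfcp2l1 (-2.96), Klf2 (-2.95), Nr5a2 (-2.45) and Klf5 (-2.02) fell too, and the same arrays separated without overlap in each. The single gene of the list that rose was Tbx3, which gave 8.84 and 9.31 in EBs, against 7.43 and 6.92 in ESCs. Tbx3 supports the naive state in ESCs and is also expressed in lateral mesoderm. The calls of Eras, Dazl, Prdm14 and Zscan10 in this list were lost without single arrays.

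Beside the naive factors, 5 of 9 core factors of the pluripotent state fell and 0 rose, with a median of -1.04. Sox2 gave 7.54 and 7.05 in EBs, against 10.80 and 10.97 in ESCs, a fall of 3.59 ± 0.33. Utf1, a chromatin-bound factor of ESCs, fell by 4.39 ± 0.31. Pou5f1 and Nanog fell by 2.64 ± 0.41 and 2.59 ± 0.47. The fold changes of the core list thus reached from -4.39 for Utf1 to -0.35 for Sall4, a zinc finger partner of Oct4, which gave 9.56 and 10.39 in EBs, against 10.27 and 10.38 in ESCs. Lin28a, which blocks the maturation of let-7 microRNAs, gave 9.24 and 9.48, against 9.68 and 9.75, and was not called.

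Short promoter windows of 3 of the fallen factors are printed here because they hold the letters of sites that ESC factors and repressors of the Snail and Zeb families are known to bind. The windows run from 250 bases before to 50 bases after the annotated start of the transcript and come from RefSeq (GRCm38.p6); capitals mark the octamer ATGCAAAT, the consensus of the POU factors, and the E-box CAGGTG, on either strand. The Nanog window is chr6:122707239-122707538 on the plus strand, that of Zfp42 chr8:43306960-43307259 on the minus strand and that of Zfp296, a zinc finger gene of ESCs, chr7:19577037-19577336 on the plus strand. Zfp42 and Zfp296 were added to the planned set after the search showed an octamer in them.
Nanog: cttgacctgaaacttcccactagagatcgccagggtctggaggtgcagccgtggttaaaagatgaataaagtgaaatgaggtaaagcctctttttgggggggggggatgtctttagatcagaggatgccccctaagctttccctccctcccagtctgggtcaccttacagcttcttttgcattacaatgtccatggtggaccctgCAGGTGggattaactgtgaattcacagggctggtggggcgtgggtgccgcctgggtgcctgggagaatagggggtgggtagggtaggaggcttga
Zfp42: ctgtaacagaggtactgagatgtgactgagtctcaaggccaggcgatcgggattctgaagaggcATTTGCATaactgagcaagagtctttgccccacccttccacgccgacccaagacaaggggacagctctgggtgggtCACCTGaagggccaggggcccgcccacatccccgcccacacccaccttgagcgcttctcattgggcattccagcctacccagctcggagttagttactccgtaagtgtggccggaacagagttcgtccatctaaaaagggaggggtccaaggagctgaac
Zfp296: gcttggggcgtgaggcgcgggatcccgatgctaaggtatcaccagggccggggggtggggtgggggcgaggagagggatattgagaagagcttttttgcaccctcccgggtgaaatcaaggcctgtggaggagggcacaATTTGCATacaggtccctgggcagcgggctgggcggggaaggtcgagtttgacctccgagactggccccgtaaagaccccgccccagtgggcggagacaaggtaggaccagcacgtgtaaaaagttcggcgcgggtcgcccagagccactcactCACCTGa
The Zfp42 octamer begins 186 bases and its E-box 110 bases before the start, and the Zfp296 octamer 111 bases before the start. In the printed Nanog window the E-box begins 45 bases before the start. A second Nanog window, chr6:122707315-122707614, belongs to another annotated start and holds the same E-box 121 bases before that start. The Zfp296 window also holds an E-box after the start. Zfp296 gave 6.10 and 6.24 in EBs, against 8.54 and 8.12 in ESCs. Of 15614 genes with a window, the octamer stood in that of 16 of 433 genes that fell (3.7%) and 7 of 470 that rose (1.49%), beside 1.86% of the genes not called and 1.74% of all 32851 windows of the table. The E-box stood in 32.3% of the genes that fell and 18.1% of those that rose, beside 22% of the genes not called and 20.2% of all windows. For the letters of TCF/LEF factors (CTTTGAA and CTTTGAT), FOXH1 (AATCCACA) and T-box factors (AGGTGTGA), the shares among genes that rose were 3.62%, 2.98%, 0.638% and 0.213%. Those among genes that fell were 5.77%, 3.7%, 0.924% and 0.693%, and those among genes not called 5.21%, 3.74%, 0.918% and 1.36%. Over all windows, of which a gene can have several, they were 5.14%, 3.73%, 0.855% and 1.28%. The windows of Pou5f1 and Axin2 held none of the 6 motifs. A match of letters is not a bound site, and no test was made of these shares.

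In the list of Dppa and other ESC-restricted genes, 14 of 19 fell and 0 rose, with a median of -2.01. Dppa2 and Dppa4 are neighbouring genes whose products bind CpG-rich promoters. Dppa2 gave 6.58 and 6.94 in EBs, against 10.75 and 10.84 in ESCs, and Dppa4 gave 6.43 and 5.84, against 9.64 and 9.80. Dppa5a, an RNA-binding protein, was still at 9.11 and 8.30 in EBs after its fall by 3.62 ± 0.42, against 12.30 and 12.34 in ESCs. L1td1, an RNA-binding protein derived from a LINE-1 element, fell by 3.56 ± 0.44. Of 39 germ line genes 17 fell and 1 rose, with a list median of -0.85. They included the helicase gene Ddx4 (Vasa), with 5.36 and 5.17 in EBs, against 7.56 and 7.52 in ESCs, the piRNA pathway genes Piwil2 (-1.37), Mael (-2.15), Mov10l1 (-1.72) and Stk31 (-1.91), and the synaptonemal complex genes Syce1 (-2.35) and Sycp1 (-1.21). The Tudor domain gene Tdrd12, which was not in the list, fell by 4.27 ± 0.34 and Hsf2bp, which acts in meiotic recombination, by 3.66 ± 0.31. The riser, Kitl, which encodes a ligand of primordial germ cells and blood progenitors, kept its call only when EB replicate 2 was the array left out.

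Among the 20 genes that fell most were the zinc finger genes Zfp640, Zfp980 and Zfp600. Zfp640 gave 4.09 and 3.44 in EBs, against 8.42 and 8.88 in ESCs, Zfp980 gave 4.85 and 4.79, against 9.41 and 9.69, and Zfp600 gave 4.58 and 3.33, against 7.56 and 7.88. Zfp980 and Zfp600 lie in a family of near-identical copies on chromosome 4, whose probes may read each other, so that these values cannot be ascribed to single copies. The noncoding RNA gene Lncenc1 fell by 4.34 ± 0.36, and the phospholipase gene Pla2g1b, the receptor gene Calcoco2 of selective autophagy and AU018091 fell by 3.79 ± 0.40, 3.64 ± 0.65 and 4.02 ± 0.52.

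Among the enzymes that write and erase DNA methylation, 7 of 18 measured genes fell and 0 rose, with a list median of -0.32. Dnmt3l, the catalytically inactive partner of the de novo methyltransferases, gave 5.24 and 5.75 in EBs, against 10.12 and 10.06 in ESCs, a 24.2-fold lower level in EBs (log2 change -4.60 ± 0.38, adjusted p = 2.2e-05). Tet1, a dioxygenase that oxidizes methylcytosine, gave 8.37 and 8.01, against 10.35 and 10.68, and Tet2 gave 6.51 and 5.30, against 7.72 and 7.88. The de novo enzyme Dnmt3a fell by 1.02 ± 0.22, not as a call without EB replicate 1 or ESC replicate 2. Dnmt3b changed by -0.53 ± 0.24, and Dnmt1, which maintains methylation through replication, gave 9.42 and 9.64 in EBs, against 9.60 and 9.77 in ESCs. Neither was called. The steepest falls of the list were thus those of the cofactor Dnmt3l and of Tet1 and Tet2.

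Of 27 Polycomb and Trithorax genes 3 fell and 0 rose, with a list median of -0.02. The 3 were Phc1, a subunit of Polycomb repressive complex 1, with 8.18 and 8.24 in EBs, against 10.22 and 10.36 in ESCs, Cbx7, the chromodomain subunit of the same complex in ESCs (-1.63 ± 0.17), and Jarid2, a cofactor of Polycomb repressive complex 2 (-1.60 ± 0.21). Core enzymes of both complexes were not called: Ezh2 changed by 0.00 ± 0.13 and Rnf2 by 0.20 ± 0.31. Without EB replicate 2 or ESC replicate 1, 2 genes of the list rose.

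Genes of the formative and primed epiblast did not move one way. Of 27 measured genes 6 rose and 6 fell, and the median was -0.48. Fgf5, the ligand by which the primed epiblast is usually recognized, gave 6.71 and 8.02 in EBs, against 6.61 and 6.09 in ESCs; the groups did not overlap, but the EB arrays differed by more than 1 and the gene was not called (adjusted p = 0.21). Otx2 and Pou3f1 (Oct6), which turn on as naive ESCs leave that state, had changes of -0.81 ± 0.39 and -0.88 ± 0.20 and were not called either. The falls included Etv5 (-2.15 ± 0.32), a target of FGF signals, Grhl2 (-1.46 ± 0.26), a factor of epithelia, and the ectoenzyme gene Enpp3 (-4.06 ± 0.34). The rises included Cdh2 (2.40 ± 0.38) and the carbonic anhydrase gene Car14 (2.51 ± 0.28). Without EB replicate 1 the counts of this list were 3 and 3.

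Members of the Nodal pathway moved in both directions. The ligand genes Nodal and Gdf3 fell, Nodal with 6.46 and 6.91 in EBs, against 9.02 and 8.78 in ESCs, and Gdf3 with 6.03 and 5.91, against 10.33 and 10.32. The antagonists Lefty1 and Lefty2, which Nodal itself induces, fell too, by 3.97 ± 0.35 and 3.32 ± 0.62. They are close paralogues whose probes may read each other. Cer1, an antagonist made by anterior endoderm, rose by contrast, with 6.79 and 7.59 in EBs, against 4.81 and 5.01 in ESCs, and so did Cfc1 (Cryptic), the second co-receptor beside Tdgf1, with 8.57 and 8.70, against 5.78 and 5.8. The nuclear partners Foxh1 and Smad3 rose by 1.45 ± 0.17 and 1.43 ± 0.21. Of the 20 genes 4 rose and 5 fell, and 8 fell without EB replicate 2.

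In the BMP pathway 11 of 25 genes rose, 1 fell and 13 were not called, with a list median of 0.70. Among ligands, Bmp5 gave 8.63 and 8.16 in EBs, against 5.11 and 5.20 in ESCs, Bmp2 gave 7.83 and 6.54, against 4.50 and 3.91, and Bmp7 rose by 1.5 ± 0.19. Bmp4, the ligand needed for mesoderm in the embryo, gave 9.75 and 8.87, against 7.70 and 7.16, and lost its call without EB replicate 1 or ESC replicate 2. The transducer Smad1 rose by 1.61 ± 0.30 (not without ESC replicate 2), and the extracellular modulator Bmper by 3.16 ± 0.21. The feedback inhibitors Smad6 and Bambi rose by 2.49 ± 0.24 and 2.32 ± 0.24. The homeobox target Msx2 gave 9.19 and 9.45 in EBs, against 6.07 and 5.87 in ESCs, and Msx1 gave 8.58 and 9.05, against 6.50 and 6.32. Id3, a direct target, rose by 1.56 ± 0.33, with its call lost without EB replicate 2 or ESC replicate 2. The gene that fell, Bmp8b (-1.02 ± 0.25), lost its call without EB replicate 1 or ESC replicate 1.

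**Figure D3:**
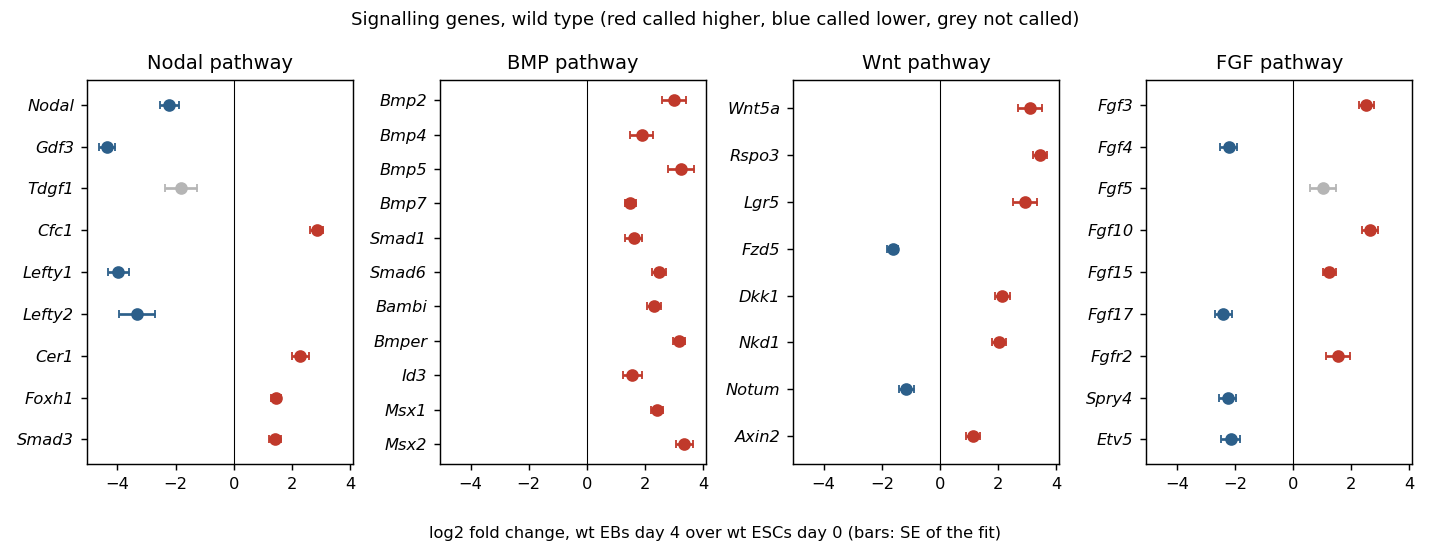
Log2 fold change of genes of 4 signalling pathways, wt EBs of day 4 over wt ESCs of day 0 (point, with bars of 1 SE of the fit, 2 arrays per group). The 11 BMP genes drawn are those called higher, so all lie right of 0; Nodal, Gdf3 and both Lefty genes, Fgf4, Fgf17, Spry4 and Etv5 lie left of it.

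In the Wnt list 7 of 35 genes rose and 2 fell (1 without EB replicate 1 or ESC replicate 2), with a median of 0.20. Rspo3, a secreted amplifier of Wnt signals, gave 8.69 and 8.17 in EBs, against 5.06 and 4.96 in ESCs, and Lgr5, a receptor of the R-spondins, gave 7.86 and 7.59, against 4.87 and 4.74. The noncanonical ligand gene Wnt5a rose by 3.08 ± 0.41. The antagonist Dkk1 and the feedback inhibitor Nkd1 rose by 2.15 ± 0.26 and 2.04 ± 0.23, and Axin2, the usual readout of the canonical pathway, by 1.13 ± 0.24, without a call when EB replicate 1 or ESC replicate 2 was left out. Wnt3, the streak ligand, changed by 0.87 ± 0.40 and was not called. The receptor gene Fzd5 fell by 1.63 ± 0.19.

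FGF ligands moved in both directions. Fgf4, the ligand of ESCs and the inner cell mass, gave 6.13 and 6.42 in EBs, against 8.52 and 8.48 in ESCs, and Fgf17 gave 5.92 and 6.40, against 8.95 and 8.17. Fgf3 and Fgf10, ligands of later mesoderm and organ buds, went the other way. Fgf3 gave 8.06 and 7.58 in EBs, against 5.35 and 5.25 in ESCs, and Fgf10 gave 8.07 and 7.66, against 5.14 and 5.33. The feedback inhibitor Spry4 fell by 2.25 ± 0.30, as Etv5 did. Of the 25 genes 5 rose and 5 fell, with a median of 0.12; without EB replicate 1, 3 rose. In the retinoic acid list of 22 genes 1 rose (4.55%, beside 3.02% of all genes) and 1 fell (4.55%, beside 2.77%). The riser was Cyp26a1, which degrades retinoic acid and marks the streak and anterior mesendoderm. It gave 8.97 and 9.43 in EBs, against 6.11 and 4.92 in ESCs, a 12.8-fold higher level (log2 change 3.68 ± 0.49, adjusted p = 0.00051). In the Hedgehog list of 14 genes 2 rose and 2 fell (1 without EB replicate 1 or either ESC array), among them the transducer Smo (1.25 ± 0.16) and the target Gli1 (-1.42 ± 0.19). In the Notch list 4 of 18 rose (Hey2, Hey1, Nrarp and Hes1); 0 to 3 did so with single arrays left out, and each of these genes lost its call in at least 1 such fit. Of 19 ephrins and Eph receptors 2 rose and 1 fell, among them the ligand gene Efna1 (2.26 ± 0.30) and the receptor gene Epha2 (-2.47 ± 0.33); 3 rose without EB replicate 2 or ESC replicate 1.

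Of the 20 genes that rose most, several belong to no signalling list. Cxcr4, the chemokine receptor of migrating mesendoderm, gave 10.13 and 10.56 in EBs, against 5.97 and 6.16 in ESCs. Unc5c, a netrin receptor, and Pmp22, a membrane protein of myelin and junctions, rose by 3.78 ± 0.55 and 3.84 ± 0.48. Prdm6, a regulator of smooth muscle genes, rose by 3.45 ± 0.31, and Asb4, a vascular ubiquitin ligase subunit, and Greb1l by 3.67 ± 0.34 and 3.40 ± 0.32. All of these separated without overlap between EBs and ESCs. Tdo2, an enzyme of tryptophan breakdown, rose by 4.21 ± 0.81, but lost its call without EB replicate 1.

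Of 21 primitive streak regulators 6 rose and 0 fell, with a median of 0.74, and 2 rose without EB replicate 2. Eomes, the T-box factor that specifies mesendoderm, gave 8.12 and 9.75 in EB replicates 1 and 2, against 6.64 and 5.75 in ESCs (2.75 ± 0.57, adjusted p = 0.0084). Mixl1, a homeobox gene of the streak, gave 7.97 and 9.35, against 6.32 and 5.68 (2.66 ± 0.59, adjusted p = 0.013). Both calls were lost without EB replicate 2 or without ESC replicate 2. Lhx1 gave 7.10 and 8.36, against 5.15 and 5.55, and lost its call without EB replicate 2. Cdx2, a homeobox gene of the posterior streak and of trophoblast, was steadier, with 8.90 and 8.41 in EBs, against 6.54 and 6.26 in ESCs. Mesp1, which marks the first cardiac mesoderm, gave 6.37 and 6.48, against 4.92 and 5.16, and was not called (adjusted p = 0.16).

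Of 30 regulators of lateral and cardiac mesoderm 14 rose and 0 fell, with a median of 0.80. Foxf1, a forkhead factor of lateral plate mesoderm, gave 10.09 and 10.18 in EBs, against 6.49 and 6.58 in ESCs, a 12.1-fold higher level (log2 change 3.60 ± 0.19, adjusted p = 1.9e-06). Pdgfra, the receptor that with Kdr is used to sort mesoderm from EBs, gave 9.24 and 9.76, against 5.50 and 5.94, and Tbx20, a cardiac T-box factor, gave 9.14 and 9.04, against 6.10 and 5.55. These 3 genes were at or above 9 in both EB arrays. Isl1, a factor of the second heart field, rose by 1.99 ± 0.31, and Snai2 gave 8.40 and 7.39 in EBs, against 5.03 and 5.12 in ESCs. The genes of the contracting heart were mostly not called. Of 18 sarcomere genes 1 rose (5.56%, beside 3.02% of all genes), Tnnc1 (1.53 ± 0.26), with a list median of 0.01. Tnnt2 changed by 0.11 ± 0.17 and Myh6 by -0.70 ± 0.28.

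Genes of the hemangioblast and endothelium rose with Kdr, 10 of 33, with 1 fall (0 without ESC replicate 2) and a median of 0.44. Nrp1, a co-receptor of VEGF and semaphorins, had the largest rise of all genes, with 10.31 and 9.98 in EBs, against 4.79 and 4.87 in ESCs, a 39.8-fold higher level (log2 change 5.31 ± 0.45, adjusted p = 2.3e-05). Aplnr, the apelin receptor of migrating mesoderm, rose by 3.64 ± 0.25. Lmo2, Fli1 and Flt1 rose by 2.03 ± 0.28, 1.94 ± 0.35 and 1.69 ± 0.26. The blood factor Runx1 gave 8.17 and 7.47 in EBs, against 6.08 and 5.76 in ESCs, and Etv2, the master factor of the hemangioblast, gave 6.78 and 7.65, against 6.21 and 5.90; both lost their calls without single arrays. Cdh5, the cadherin of formed endothelium, gave 6.17 and 5.93, against 5.37 and 4.92 (adjusted p = 0.076). Of 14 primitive erythroid genes 0 were called in either direction, and 1 rose without EB replicate 2. The embryonic globin Hbb-bh1 gave 8.40 and 5.26 in EB replicates 1 and 2, against 4.36 and 4.02 in ESCs, so that its change of 2.64 had an SE of 1.35.

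Of 16 genes in the list of endoderm transcription factors 6 rose and 0 fell, with a median of 0.68: Sox17, Gata4 and Gata6, and Eomes, Cdx2 and Cer1, which the streak list also holds. Gata4 gave 8.35 and 9.19 in EBs, against 6.52 and 6.66 in ESCs. The secreted products of visceral and parietal endoderm were mostly not called. Alb changed by 0.06 ± 0.35, and Ttr gave 8.55 and 6.32 in EB replicates 1 and 2, against 5.20 and 5.37 in ESCs. The list counts of 7 risers and 1 fall among 34 genes became 3 and 3 without EB replicate 1, 4 and 2 without ESC replicate 1, and 2 and 1 without ESC replicate 2. In it, Amot, a regulator of Hippo signals and cell junctions, gave 10.22 and 10.26 in EBs, against 6.36 and 5.51 in ESCs (4.31 ± 0.27, adjusted p = 4.9e-06), and the endocytic receptor gene Lrp2 gave 6.13 and 6.20, against 8.90 and 8.26. In the trophoblast list 8 of 23 genes rose and 0 fell (4 to 8 without single arrays, 4 without ESC replicate 2 and 5 without EB replicate 2). Cdx2, Eomes and Hand1 are shared with the mesoderm lists; Plac1 rose by 3.16 ± 0.47 and Gata3 by 1.70 ± 0.26. Of 32 neural genes 6 fell and 0 rose, with a median of -0.28. The 6 were Sox2, Pax6, Tubb3 (-1.82), Neurod1 (-1.61), Gbx2 (-1.25) and En2 (-1.05), of which Sox2 and Gbx2 are also ESC genes.

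Of 30 genes of cadherins, claudins and epithelial junctions 4 rose and 5 fell, with a median of -0.31; without EB replicate 1 or ESC replicate 2 the counts were 3 and 7 or 2 and 6. Cdh1 (E-cadherin), the cadherin of ESCs and epithelia, gave 9.41 and 9.85 in EBs, against 11.04 and 10.96 in ESCs. Cdh2 (N-cadherin) gave 9.40 and 9.70, against 7.47 and 6.84, and Cdh11, a cadherin of mesenchyme, gave 10.16 and 10.62, against 5.47 and 4.95 (5.18 ± 0.27, adjusted p = 1.9e-06). The signals of Cdh1 and Cdh2 on the 2 EB arrays overlapped, but signals of different probe sets are not levels that can be compared. Of 27 genes of mesenchymal transition 12 rose and 0 fell, with a median of 0.82; 6 rose without ESC replicate 2. Among the repressors of Cdh1, Snai2 rose by 2.82 ± 0.50, Zeb2 by 2.14 ± 0.19, Twist1 by 1.88 ± 0.37, Snai1 by 1.19 ± 0.26 and Zeb1 by 1.10 ± 0.31. The calls of Snai2 and Zeb2 held without each wt array; Twist1 lost its call without ESC replicate 2, Snai1 without EB replicate 2 or ESC replicate 1, and Zeb1 in each of these fits. Claudin 4 (Cldn4) fell by 1.27 ± 0.23. The matrix genes Has2, which makes hyaluronan, Lama4, Fbn2 and Vcan rose by 3.09 ± 0.44, 3.06 ± 0.43, 2.44 ± 0.20 and 2.14 ± 0.32, and Nid2 and Col18a1 fell by 1.5 ± 0.19 and 1.28 ± 0.19. In the list of contractile and YAP target genes 4 of 22 fell and 0 rose, and 1 fell without ESC replicate 1 or without either EB array. Ccn2 and Thbs1 differed between the ESC arrays, at 10.10 and 8.97 (Ccn2) and 9.29 and 7.67 (Thbs1).

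Of 27 imprinted genes 8 rose and 0 fell, with a median of 0.29; 5 rose without EB replicate 1 and 4 without ESC replicate 2. Igf2, a paternally expressed growth factor, gave 10.81 and 10.64 in EBs, against 7.48 and 7.19 in ESCs, and Peg3 gave 11.20 and 11.42, against 8.44 and 7.76. The array does not tell the parental alleles apart. Among 37 Hox genes 2 rose and 0 fell, Hoxb2 with 7.50 and 6.87 in EBs, against 5.36 and 5.13 in ESCs, and Hoxd1 (1.33 ± 0.27), which lost its call without EB replicate 1 or ESC replicate 2; 4 rose without EB replicate 2. Both lie near the 3′ ends of their clusters, and an order along the clusters was not tested. The 5.41% of Hox genes that rose compare with 3.02% of all genes. Of 739 X-linked genes 45 rose (6.09%) and 25 fell (3.38%), beside 3.02% and 2.77% of all genes, among them Amot, Capn6 (4.56 ± 0.42), Zfp711 (3.61 ± 0.46) and Nr0b1.

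Of 23 ribosomal protein genes 0 were called, with a range of -0.23 to 0.39. Of 40 cell cycle and replication genes 2 fell (5%, beside 2.77% of all genes) and 0 rose. The 2 that fell were Ccne1 (cyclin E1), with 8.84 and 9.09 in EBs, against 10.97 and 10.81 in ESCs, and Mycn (-2.01 ± 0.17). Of 19 genes of cholesterol synthesis 8 rose and 0 fell, with a median of 0.89 and a range of 0.02 to 1.49. Hmgcs1, the first committed enzyme, gave 11.52 and 11.60 in EBs, against 10.09 and 10.48 in ESCs, and Cyp51, a sterol demethylase, gave 9.47 and 9.35, against 7.84 and 8.0. Of 27 genes of one-carbon and amino acid metabolism 3 fell and 0 rose: the arginine transporter Slc7a3, with 7.38 and 7.65, against 10.45 and 10.76, Gldc, which feeds the glycine cleavage system (-1.62 ± 0.23), and Slc7a5 (-1.06 ± 0.18); 5 fell without EB replicate 1. Of 35 genes of glycolysis and the hypoxia response 5 rose (Egln3, P4ha1, P4ha2, Vegfa and Ndrg1), with a median of 0.48. These calls depended on single arrays. Without EB replicate 1, and also without ESC replicate 2, 0 rose, without ESC replicate 1 it was 1, and without EB replicate 2 it was 10.

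The EB arrays differed from each other by gene list. Over the 21 streak regulators, EB replicate 2 minus EB replicate 1 had a median of 0.46, and 18 were higher in replicate 2. Over the 35 hypoxia genes the median was -0.75 and 30 were lower in replicate 2; P4ha2, for one, gave 9.30 in replicate 1 and 7.53 in replicate 2, against 6.80 and 6.58 in ESCs. Over the 14 erythroid genes the median was -0.43, beside 0.04 over all genes. Pou5f1, Nanog and Tdgf1 were each higher in replicate 2, by 0.60, 0.61 and 1.17. The part of these shifts in the results was not tested. The ESC arrays differed as well: ESC replicate 1 was higher in Krt8 (10.68 against 9.20 in replicate 2), Krt18, Nes and Thbs1, and the rises of Krt8 and Krt18 in EBs lost their calls without ESC replicate 2 and without either EB array.

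MicroRNAs of the miR-302 and miR-17 families act in the cell cycle of pluripotent cells. On this array a probe set reads the RNA of the miRNA gene, mostly its precursor, and not the mature form. The cluster of Mir302a, Mir302b, Mir302c, Mir302d and Mir367 on chromosome 3, which marks the primed epiblast, had log2 changes of 1.52 to 2.33, none of them called (adjusted p = 0.24 to 0.39). Mir302c gave 7.64 and 7.17 in EBs, against 6.60 and 3.54 in ESC replicates 1 and 2. In this gene the ESC arrays were further apart than the group means. The mature sequences held by RefSeq (GRCm38.p6) for the 3′ arms are printed with the seed, bases 2 to 8, in capitals, since the seed decides which messages a miRNA binds.
mmu-miR-302b-3p: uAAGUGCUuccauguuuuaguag
mmu-miR-302d-3p: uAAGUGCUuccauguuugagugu
mmu-miR-302c-3p: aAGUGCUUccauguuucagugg
mmu-miR-367-3p: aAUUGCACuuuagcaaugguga
The seeds of miR-302b-3p and miR-302d-3p are the same, and that of miR-302c-3p, as listed, is shifted by 1 base. The seed of miR-367-3p is another one, shared with miR-363-3p of the X-linked Mir106a cluster. Mir363 changed by -1.53 ± 1.08. Of 42 miRNA genes measured 0 were called in the fit of all arrays, and 1 without EB replicate 2.

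The wt EBs of day 16 place these changes in a time course. Nr0b1 was at 10.50, 4.89 and 5.88 on days 0, 4 and 16 (means of 2 arrays). Klf5 and Sox2 were higher again on day 16 as a call, with 9.30, 7.28 and 9.34 (Klf5) and 10.88, 7.29 and 8.77 (Sox2), while Pou5f1 fell further, with 11.46, 8.83 and 7.14. Of the 3 days, day 4 had the highest means of the streak genes Eomes (6.19, 8.94 and 5.60) and Mixl1 (6.0, 8.66 and 6.18). Of the 21 streak regulators, 7 were called lower and 0 higher on day 16 than on day 4. Kdr, Hand1, Aplnr and Msx2 were lower again on day 16 than on day 4, each as a call, and Cdh11, Pdgfra and Gata6 were not called between these days. Igf2 and Col1a1 were higher still on day 16, and the liver and visceral endoderm products Afp and Ttr had means of 5.18, 5.15 and 12.60 (Afp) and 5.29, 7.43 and 12.26 (Ttr). Lin28a and Sall4, which were not called between day 0 and day 4, fell by 2.15 ± 0.18 and 2.07 ± 0.24 between day 4 and day 16. Between these days 1218 genes were called higher (6.11%) and 434 lower (2.18%). This comparison shares the EB arrays of day 4, so no overlap between the intervals is given.

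**Figure D4:**
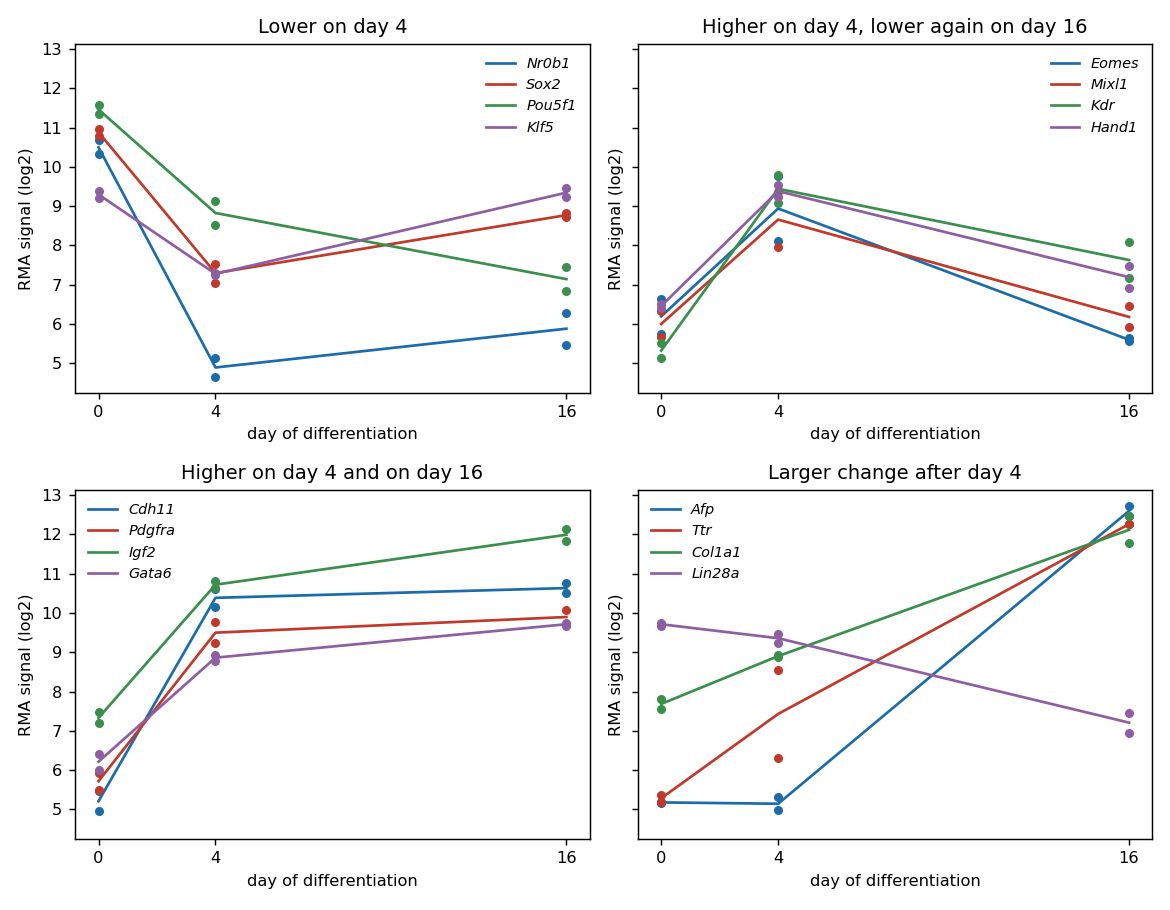
RMA signal (log2) of 16 genes in wt cells on days 0, 4 and 16 of differentiation; points are single arrays, lines join the means of 2 arrays, and the genes were chosen after their values were seen. Of the 3 days, Eomes, Mixl1, Kdr and Hand1 are highest on day 4, while Afp has means of 5.18, 5.15 and 12.60.

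The same interval was measured in both mutant lines. Loss of DNA methylation, loss of the enzymes themselves and other differences between the lines cannot be told apart in this comparison. In Dnmt1-/- cells 908 probe sets were called higher (2.56%) and 728 lower (2.05%) in EBs of day 4 against their own ESCs. Of the probe sets called higher in wt, 57.8% were also called higher in Dnmt1-/- cells (55% of those of Dnmt1-/-), and of those called lower 68.4% were also lower (69.4%). The difference of the changes, Dnmt1-/- minus wt, reached a call in 0 of 35512 probe sets (0%); limma gave 1457 at an unadjusted p under 0.05, and 58 were called without EB replicate 1 of wt, 13 without EB replicate 2 of Dnmt1-/- and 1 without ESC replicate 2 of wt. In TKO cells 807 were called higher (2.27%) and 319 lower (0.898%). Of the probe sets called higher in wt, 29.8% were also higher in TKO cells (31.8% of those of TKO), and of those called lower 27.5% were also lower (63.6%), while 9 were called the other way. The median change of the probe sets lower in wt was -0.62 in TKO cells and -1.32 in Dnmt1-/- cells, beside -1.5 in wt. The wt values chose these probe sets, so the medians are a description, and only the test of the difference compares the lines.

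By that test the change differed between TKO and wt in 491 probe sets, with 379 higher in TKO minus wt (1.07%) and 112 lower (0.315%). Of the 379, 170 were called lower in wt, so that the fall was smaller, absent or turned round in TKO cells. Of the 112, 78 were called higher in wt. The difference subtracts the wt change, so both calls rest on the same wt arrays. These overlaps are thus in part built in and are given as a description only. Nr0b1 fell by 5.60 in wt and had a change of -1.25 ± 0.44 in TKO cells, a difference of 4.36 ± 0.63. Lefty2 had a change of 0.68 ± 0.62 in TKO cells, against -3.32 ± 0.62 in wt. Capn6, Igf2 and Foxf1 changed by 0.10 ± 0.42, -0.44 ± 0.31 and -0.13 ± 0.19 in TKO cells, against 4.56, 3.39 and 3.60 in wt. Kdr rose by 3.41 ± 0.36 in TKO cells and Amot by 3.84 ± 0.27, and the differences from wt, -0.71 ± 0.50 and -0.47 ± 0.38, were not called. Leaving out any one of the 8 wt and TKO arrays of these days lowered the count of 491, to between 131 and 307.

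**Figure D5:**
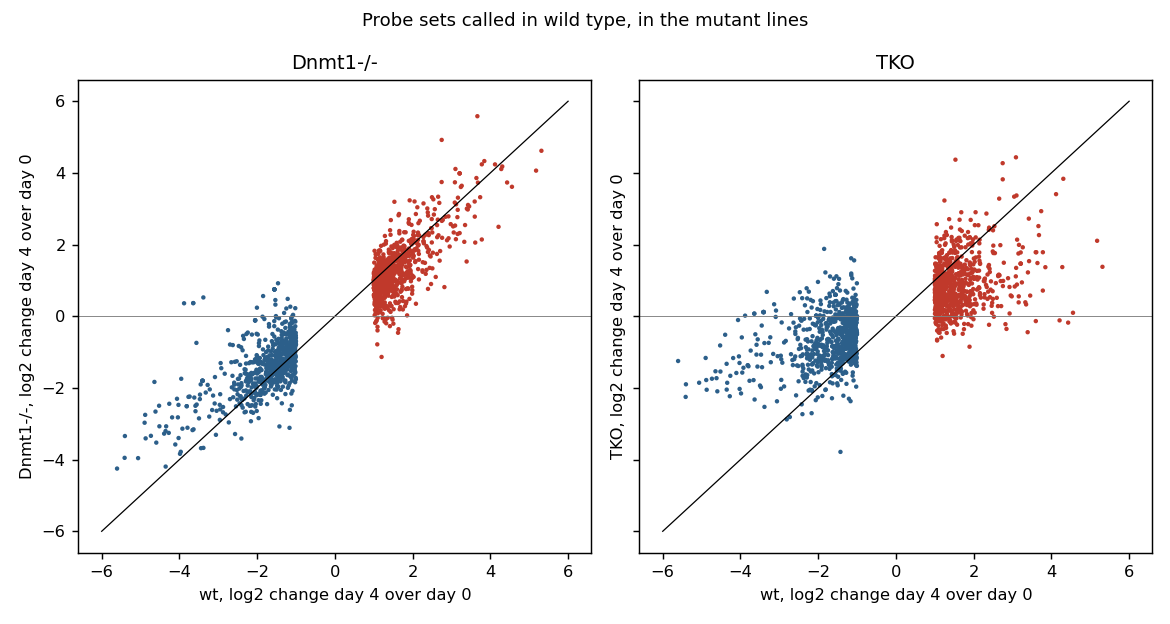
Log2 change from day 0 to day 4 in Dnmt1-/- (left) and TKO cells (right) against that in wt for the 1601 probe sets called in wt (red higher, blue lower); the black line marks equal change. The points of Dnmt1-/- lie along the line, with medians of 1.15 and -1.32 for the higher and lower sets, and those of TKO lie nearer to 0, with medians of 0.74 and -0.62.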

How the data were processed

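Total RNA of 18 samples had been hybridised to GeneChip Mouse Gene 1.0 ST arrays. The deposited values are log2 signals per probe set, which the authors made with RMA (named in the submitters' processing notes, version not given in the sources used here); RMA shares background and quantile steps between arrays and compresses low signals. From these values a limma fit (version 3.58.1, R 4.3.3) of 9 group means was made over all 18 arrays and 35512 probe sets, without a filter, with Benjamini-Hochberg adjustment over all probe sets in each comparison (9 residual and 3.32 prior degrees of freedom; median SE of the wt change 0.203). Array signals give no counts, so the 2 arrays per group limit precision.

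Probe sets were named from GEO's platform table, only where 1 symbol was given, and a gene was represented by its brightest probe set over the 18 arrays. Named genes were the 20 largest called changes in each direction whose arrays did not overlap, up to 6 called members of a list with their partners, all ESC identity and germ layer markers, and the miRNA clusters; further members were named after their values were seen. The members of the comparison and the gene lists were chosen with earlier results of these data known. Tested on simulated data for the wt comparison over 35512 probe sets, the fit called 86 of 100 effects of 1.5 (log2), 98 of 100 of 2.5 and 6 of 35312 probe sets without an effect. The simulated noise was independent between probe sets. It held no shifts shared by many genes of an array, as seen between the EB arrays, so these counts do not cover errors from such shifts. Alternatives were other scalings, a filter on dim probe sets, other sets of arrays, a moderated variance with trend, a replicate block and each array left out. Brachyury, which has no probe set of its own symbol, is not analysed here.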

Additional observations from a re-analysis of the deposited data

Results flagged for a closer look

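The results given here are those named genes whose change between day 0 and day 4 differed, by the test of the difference itself, between TKO and wt cells. Values are the log2 change of TKO cells minus that of wt cells, and all passed the threshold of the report (2-fold and an adjusted p under 0.05 in limma). No gene named in the text had such a difference between Dnmt1-/- and wt. Since the count of these differences was lower with each one of the 8 arrays left out, single values rest on small samples. Many of the genes were named for the size of their wt change, which the difference subtracts. That choice favours negative differences among genes that rose in wt and positive ones among genes that fell. The directions of the differences listed below are therefore in part built in.

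The ESC genes given next stood higher in the TKO change than in the wt change. Among the pluripotency factors the differences were 4.36 for Nr0b1, 3.88 for Utf1, 3.21 for Zfp42, 2.79 for Sox2, 2.52 for Esrrb, 1.75 for Klf2 and 1.42 for Klf5. Among genes restricted to ESCs and the germ line they were 3.11 for Dppa5a, 2.92 for Dppa2, 2.91 for L1td1, 2.52 for Dppa4, 2.48 for Lncenc1 and 2.40 for Ddx4. The zinc finger genes Zfp640 and Zfp980 had 3.10 and 2.99. Nodal and its relatives followed, with 4.00 for Lefty2, 3.38 for Lefty1, 3.03 for Gdf3 and 2.16 for Nodal.

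Other genes higher in the TKO change were the epiblast genes Enpp3 (3.96), Fgf5 (3.02), Otx2 (2.48) and Pou3f1 (1.36), of which the last 3 were not called in wt. Cdh1 had 1.81, the receptor genes Lrp2 and Epha2 2.92 and 2.41, the transporter Slc7a3 3.07 and the enzyme Gldc 1.59. The regulators of the cell cycle Ccne1 and Mycn had 1.68 and 1.37, and the Polycomb subunits Phc1 and Cbx7 1.84 and 1.28. Dnmt3l had 2.5 and Dnmt3b 1.88; Dnmt3b is one of the genes targeted in the TKO line. Mir106a had 2.60. Thbs1 (3.73), Ccn2 (3.04) and Nes (2.72) are genes in which the wt ESC arrays were far apart, and the part of that spread in these differences was not tested.

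The genes given next stood lower in the TKO change. Of the lateral and cardiac mesoderm list 6 of 30 were lower and 1 higher. Of the hemangioblast and endothelial list 2 of 33 were lower and 1 higher. Over all 19938 genes 86 were lower and 261 higher. Among genes of mesoderm and mesenchyme and others of the largest rises, the differences were -4.46 for Capn6, -3.93 for Nrp1, -3.73 for Foxf1, -3.07 for Cdh11, -2.91 for Cxcr4, -2.88 for Prdm6, -2.85 for Hand1, -2.74 for Tbx3, -2.17 for Greb1l, -2.16 for Aplnr, -2.04 for Pdgfrb and -1.99 for Pdgfra. In the BMP pathway they were -3.02 for Msx2, -2.61 for Bmper, -2.01 for Smad6 and -1.98 for Bmp7. Other signalling genes were Cfc1 (-3.20), Fgf3 (-2.53), Rspo3 (-1.89) and Nkd1 (-1.56). The transcription factors Hoxb2, Cdx2, Gata4 and Foxa2 had -2.21, -1.93, -1.67 and -1.29. Igf2 had -3.83, the matrix genes Fbn2 and Fbln2 -1.47 and -1.33, and the troponin gene Tnnc1 -1.71.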

How the results depend on the processing

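Of the 1601 probe sets called in wt EBs against ESCs, the count was 1158 to 1647 with single wt arrays left out (537 to 955 higher, 621 to 692 lower), 1209 with the 4 arrays alone and 1280 with the 6 wt arrays alone. Under the other scalings, the filter on dim probe sets and the moderated variance with trend it lay between 1524 and 1604. For TKO minus wt the count of 491 became 131 to 307 with single arrays left out (100 to 247 higher, 31 to 109 lower). For Dnmt1-/- minus wt the 0 calls became 0 to 58 (0 to 56 higher, 0 to 2 lower). Of 174 called genes named in the text, 133 kept their call without each wt array and 41 lost it at least once. Among the 202 named genes, no direction turned round where the gene was called in the main fit or in the alternative. Changes of sign in genes called in neither were not counted. Single list medians moved by at most 0.08 under another scaling. The 2 arrays per group limit these results, since an exact permutation test of 2 against 2 cannot go below p = 0.333.

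Deviations of same-numbered arrays correlated at 0.26 between wt EBs and ESCs and at 0.04 to 0.50 over all pairs of groups. The labels do not tie a number to one experiment, so whether the numbers pair the arrays is not settled, and the main results have no block. With the replicate block 1730 probe sets were called in wt (954 higher, 776 lower), 656 for TKO minus wt (506 higher, 150 lower) and 0 for Dnmt1-/- minus wt.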
